A study of Mus musculus with 18 samples.

Results

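The heavy chain variable segments of the mouse immunoglobulin locus, the genes named Ighv, were followed through 5 RNA comparisons built on Beclin 2 knockout and wild-type mice. Beclin 2 resembles the autophagy protein Beclin 1 in sequence. Every gene whose symbol began with Ighv in any of the authors' deposited tables was taken, which gave 64 segments among 2202 genes listed in at least 1 table. Each group held 2 samples: B cells and T cells of the spleen at 8 weeks of age and lymph node, each from knockout and from wild-type animals, and lymphoma tissue, from knockout animals alone. All were labelled C57BL/6, unstimulated and used without culture, and the age behind the lymph nodes and tumours is not in the labels. Nothing in the labels tells whether a group's samples are separate animals, or whether B and T cells came from the same mice, so the p-values cover the spread of these samples alone, and that spread may be technical. The tables list called genes alone (the authors' adjusted p below 0.05) and give a single group mean of normalised reads for either side, so a segment missing from a table was not called or not tested there, and its level in that comparison was not known.

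An antibody heavy chain is encoded by a variable (V), a diversity (D) and a joining (J) segment, which a developing B cell joins by recombination on chromosome 12, upstream of the constant region genes. Each B cell expresses the V segment of its own rearrangement, and an expanded clone carries that segment in all its cells. The summed reads of a V segment in a tissue therefore depend, among other things, on how many B lineage cells use it. They also depend on how much immunoglobulin mRNA each of these cells makes. In bulk RNA fewer cells and less RNA per cell cannot be told apart. Whether knockout and wild-type animals carried the same sequences at this locus was not tested. Plasma cells make far more immunoglobulin mRNA than resting B cells. T cells do not assemble heavy chain genes, and antibody heavy chain mRNA is made by cells of the B lineage.

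Of the 64 segments, 62 were placed by their gene identifier in GENCODE M21 on GRCm38. All 62 lay on the minus strand of chromosome 12 and were annotated as V genes, not as pseudogenes. Whether each encodes a working segment was not examined. That annotation holds 185 Ighv genes over 2.44 Mb, of which 113 are V genes and 70 pseudogenes. The identifiers of Ighv1-15 and Ighv1-23 were not placed. The identifier that the files name Ighv1-14 (ENSMUSG00000095554) carries the name Ighv1-16 in GENCODE M21, and the name of the files is used below. The segments belonged to 11 families of similar sequence. Ighv1, the large family that fills the part of the locus far from the D segments, gave 37 of them, and Ighv2 and Ighv5, the families nearest the D segments, gave 6 each. The last 294 coding bases of each placed segment were between 76.2% and 99.3% identical to those of its closest relative in the annotation. Reads of such relatives can be divided between them by counting, and the counting rule was not given in the sources used here.

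The sequences that follow show how alike segments can be that were called in opposite directions. They are the 3 closest pairs with opposite calls in the same comparison, each 96.6% identical, with the 10 differing bases in capitals. All are the last 294 bases of the segment in GENCODE M21 on GRCm38, 5′ to 3′ on the minus strand of chromosome 12. In the first pair, Ighv1-22 (chr12:114746273-114746566) was lower and Ighv1-18 (chr12:114682632-114682925) higher in knockout than in wild-type T cells. In the second, Ighv10-3 (chr12:114523441-114523734) was lower and Ighv10-1 (chr12:114479005-114479298) higher in lymphoma than in wild-type lymph node. In the third, Ighv2-6-8 (chr12:113796138-113796431) was lower and Ighv2-9 (chr12:113879096-113879389) higher in that same comparison.
Ighv1-22: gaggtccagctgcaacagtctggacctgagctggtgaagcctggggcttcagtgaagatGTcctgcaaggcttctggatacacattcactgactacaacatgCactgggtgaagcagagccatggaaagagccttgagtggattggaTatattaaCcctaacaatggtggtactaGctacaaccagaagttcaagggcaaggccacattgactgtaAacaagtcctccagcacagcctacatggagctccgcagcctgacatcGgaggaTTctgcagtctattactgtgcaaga
Ighv1-18: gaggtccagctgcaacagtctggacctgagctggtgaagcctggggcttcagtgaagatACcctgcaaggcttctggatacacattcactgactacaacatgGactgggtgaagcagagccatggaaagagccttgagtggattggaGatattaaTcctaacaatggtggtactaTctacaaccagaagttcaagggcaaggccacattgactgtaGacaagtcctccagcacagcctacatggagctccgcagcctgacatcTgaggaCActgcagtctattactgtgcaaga
Ighv10-3: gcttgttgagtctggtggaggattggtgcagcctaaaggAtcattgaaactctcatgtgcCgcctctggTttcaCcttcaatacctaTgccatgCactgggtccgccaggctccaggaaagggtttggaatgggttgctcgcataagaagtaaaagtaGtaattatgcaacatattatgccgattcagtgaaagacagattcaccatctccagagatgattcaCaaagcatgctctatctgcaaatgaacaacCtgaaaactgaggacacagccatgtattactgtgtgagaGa
Ighv10-1: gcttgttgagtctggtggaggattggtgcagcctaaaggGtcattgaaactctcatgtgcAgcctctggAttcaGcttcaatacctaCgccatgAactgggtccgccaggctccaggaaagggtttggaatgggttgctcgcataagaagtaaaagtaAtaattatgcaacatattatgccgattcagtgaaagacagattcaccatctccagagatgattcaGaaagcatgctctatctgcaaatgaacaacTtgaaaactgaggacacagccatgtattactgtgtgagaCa
Ighv2-6-8: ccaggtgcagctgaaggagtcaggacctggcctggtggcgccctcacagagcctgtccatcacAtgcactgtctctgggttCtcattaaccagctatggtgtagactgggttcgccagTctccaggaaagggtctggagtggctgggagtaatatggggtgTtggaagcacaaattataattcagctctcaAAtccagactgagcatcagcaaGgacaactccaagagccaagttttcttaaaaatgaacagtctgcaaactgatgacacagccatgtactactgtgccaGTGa
Ighv2-9: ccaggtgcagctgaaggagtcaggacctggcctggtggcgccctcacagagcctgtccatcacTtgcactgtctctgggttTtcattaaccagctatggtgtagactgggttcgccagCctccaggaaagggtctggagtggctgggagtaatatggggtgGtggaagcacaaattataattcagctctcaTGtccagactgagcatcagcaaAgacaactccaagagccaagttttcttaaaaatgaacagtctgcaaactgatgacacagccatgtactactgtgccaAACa

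Both segments at the extremes of the data are shown in the same way beside a close relative. Ighv1-80 (chr12:115912344-115912637) had no read in any of the 6 knockout libraries of B cells, T cells and lymph node, whereas Ighv1-82 (chr12:115952538-115952831), with 11 differing bases and 96.3% identity, kept reads in all of them. The segment named Ighv1-14 (chr12:114665872-114666165) had the largest rise in 4 comparisons. Its closest relative, Ighv1-24 (chr12:114772928-114773221), with 6 differing bases and 98.0% identity, was listed in no table.
Ighv1-80: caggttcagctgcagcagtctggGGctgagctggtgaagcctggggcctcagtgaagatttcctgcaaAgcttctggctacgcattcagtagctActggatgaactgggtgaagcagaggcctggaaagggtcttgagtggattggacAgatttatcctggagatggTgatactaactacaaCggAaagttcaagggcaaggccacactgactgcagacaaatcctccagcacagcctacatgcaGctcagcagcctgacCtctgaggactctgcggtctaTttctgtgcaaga
Ighv1-82: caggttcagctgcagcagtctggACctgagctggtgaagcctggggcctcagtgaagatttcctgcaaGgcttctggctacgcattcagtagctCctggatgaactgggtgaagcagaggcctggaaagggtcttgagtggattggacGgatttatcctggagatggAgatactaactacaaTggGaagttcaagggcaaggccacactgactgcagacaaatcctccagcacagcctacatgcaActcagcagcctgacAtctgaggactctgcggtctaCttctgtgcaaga
Ighv1-14: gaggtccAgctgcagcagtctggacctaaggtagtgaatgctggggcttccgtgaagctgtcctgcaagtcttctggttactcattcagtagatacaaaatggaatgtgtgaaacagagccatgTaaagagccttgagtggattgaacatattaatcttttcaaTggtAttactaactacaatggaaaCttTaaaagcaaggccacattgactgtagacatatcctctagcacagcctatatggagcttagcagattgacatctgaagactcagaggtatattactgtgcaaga
Ighv1-24: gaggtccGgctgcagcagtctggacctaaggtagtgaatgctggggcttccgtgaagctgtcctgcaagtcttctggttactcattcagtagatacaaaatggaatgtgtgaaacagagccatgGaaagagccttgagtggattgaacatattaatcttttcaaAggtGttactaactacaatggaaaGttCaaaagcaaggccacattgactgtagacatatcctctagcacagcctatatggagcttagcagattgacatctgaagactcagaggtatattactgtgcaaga

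Loss of Beclin 2 went with lower levels of many V segments in splenic B cells: in the authors' deposited table, 33 Ighv segments were lower and 1 was higher in knockout, which is 17.8% and 0.541% of the annotated Ighv genes. Over all genes, 298 of about 23957 tested were called there, or 1.24%, with 0.493% higher and 0.751% lower. The Ighv segments made up 18.3% of all genes called lower. Reads per library were recovered from the authors' means for every Ighv segment (2 libraries a group, called the deeper and the other by their size factor, which ran from 0.842 to 1.19 over all tables). Reads below are those whole reads, and fold changes are ratios of the authors' normalised means.

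Of the 33 lower segments, 20 had no read in either knockout B cell library. Ighv1-80 had 819 and 595 reads in the wild-type libraries, and with 3 reads over the group as the floor it was at least 389-fold lower in knockout. Ighv1-64 had 448 and 461 wild-type reads (at least 254-fold lower) and Ighv1-22 had 337 and 274 (at least 169-fold). Ighv1-81 (335 and 234 reads), Ighv1-52 (240 and 253), Ighv1-19 (178 and 208), Ighv1-76 (198 and 181) and Ighv1-39 (206 and 173) were at least 156-, 138-, 108-, 105- and 105-fold lower. These 8 segments are all of the Ighv1 family, and each had at least 173 reads in both wild-type libraries against none in knockout. Outside that family Ighv2-9-1 (203 and 125 wild-type reads), Ighv3-1 (182 and 116) and Ighv5-16 (130 and 137) were also without knockout reads.

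The remaining segments at 0 in knockout B cells had lower levels in wild type. Ighv1-78 had 107 and 155 wild-type reads, Ighv1-42 had 120 and 86, Ighv1-85 had 107 and 82 and Ighv1-58 had 71 in each library. Ighv1-77 (49 and 36), Ighv1-34 (37 and 44), Ighv9-1 (39 and 15), Ighv1-49 (29 and 21) and Ighv1-36 (19 and 26) were the shallowest, at least 12.7-fold lower for Ighv1-36 and at least 23.4-fold for Ighv1-77. The bound of Ighv9-1 was -3.86 on the log2 scale, and -3.19 without the deeper wild-type library. Wild-type B cells thus held reads of all 20 segments in both libraries. A further pair had a single knockout read. Ighv14-4 (245 and 162 wild-type reads) was 337-fold lower, with an exact 95% counting interval from 60.5 to 13426, and Ighv1-75 (197 and 154) was 292-fold lower, from 52.1 to 11583.

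The other 11 segments fell in B cells while keeping knockout reads, and most were uneven between the knockout libraries. Ighv1-26, the most abundant Ighv segment called in wild-type B cells, had 181 and 238 knockout reads against 1304 and 914 (log2 fold change -2.13, adjusted p = 2.41e-16 in the authors' deposited table). Ighv5-17 had 27 and 16 against 367 and 333 (-3.77). Both fell in either knockout library alone. Ighv1-82 had 119 and 27 knockout reads against 448 and 436 (-2.35, and -3.77 without the deeper knockout library). Ighv10-3 had 88 and 20 against 301 and 313 (-2.26, and -3.69 without the deeper knockout library), and Ighv1-59 had 41 and 6 against 140 and 130 (-2.27, and -4.23 without it). Without that library the log2 fold changes of Ighv1-61, Ighv1-55 and Ighv1-72 went from -2.74, -1.90 and -1.74 to -4.54, -2.99 and -3.03. All of these segments therefore had lower normalised levels in the other knockout library. Ighv14-2 was uneven the other way, with 3 and 12 knockout reads against 297 and 254 (-4.93, and -6.26 without the other knockout library). Ighv1-50 had 13 and 5 against 375 and 236 (-4.81, and -5.65 without the deeper knockout library), and Ighv1-47 had 6 and 14 against 84 and 50 (-2.46, and -3.20 without the other knockout library).

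The only segment higher in knockout B cells was Ighv1-14. It had 2227 and 807 knockout reads against 4 and 4 in wild type (log2 fold change 8.82, adjusted p = 0.00148 in the authors' deposited table, and 7.91 without the deeper knockout library). It held 72.6% of the summed mean of the called Ighv segments in knockout B cells. The called segments together came to 3228 and 1332 normalised reads in knockout, uneven between libraries, and to 7010 and 7031 in wild type. All called segments but Ighv1-14 were listed as lower in knockout. Its share and the lower knockout sums thus follow from how the segments were chosen, and the reads of segments not called were not known. The 33 lower segments summed to 801 and 447 in knockout against 7006 and 7027. Their median log2 fold change was -5.31 with groups at 0 set to their bound, and -2.46 over the 13 with reads in both groups. Over all genes called lower, which include these segments, the same medians were -1.46 and -1.33. Of 10 segments with at least 20 knockout reads, 7 were at least 2-fold higher in the deeper library and 1 in the other.

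**Figure D1:**
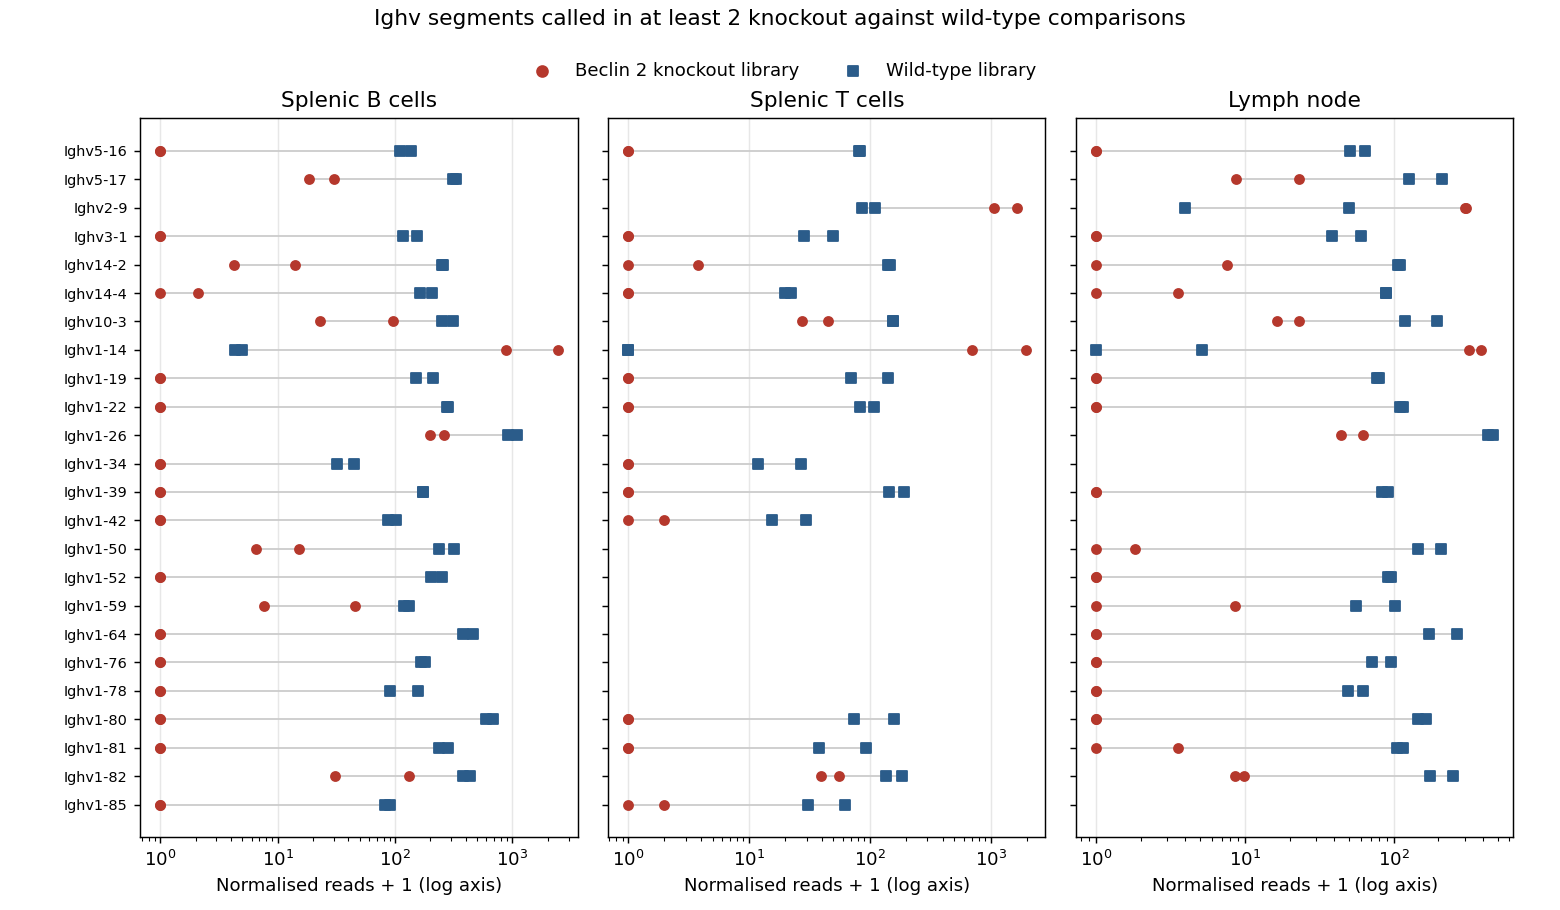
Normalised reads plus 1 (log axis) of the 24 Ighv segments called in at least 2 of the knockout against wild-type comparisons, one point per library (circles knockout, squares wild type), ordered along the locus; an empty row means that the segment was not called in that comparison. The 22 lower segments have their knockout points to the left in every panel where they appear, many of them at 0 reads, and Ighv1-14 and Ighv2-9 have theirs to the right. Only called segments are drawn, which favours such separation of the genotypes.

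In splenic T cell preparations Ighv segments went both ways. In the authors' deposited table, 23 were higher and 15 lower in knockout, 12.4% and 8.11% of the annotated Ighv genes. Of about 25015 genes tested there 587 were called, or 2.35%, with 1.67% higher and 0.676% lower. The 23 higher segments summed to 12642 and 9041 normalised reads per knockout library and to 1084 and 2132 per wild-type library. The 15 lower segments summed to 101.5 and 67.2 against 1097 and 1413. Sums over called segments of 1 direction differ between genotypes by how they were chosen.

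The higher segments in T cells lay in 8 families and differed widely in level. Ighv2-9 had 1779 and 1075 reads in knockout against 95 and 93 in wild type (log2 fold change 3.79). Ighv1-67 had 278 and 293 against 3 and 3 (6.45, adjusted p = 6.87e-39 in the authors' deposited table), and stayed between 6.27 and 6.66 with any library left out. Ighv2-5 had 335 and 212 against 8 and 12 (4.60), and Ighv5-9 had 339 and 360 against 76 and 32 (2.66). These 4 had both knockout libraries well above both wild-type libraries. Ighv3-6, one of the most abundant, had 1347 and 1128 against 143 and 345 (2.14, and 3.20 without the other wild-type library). Ighv2-6 had 369 and 287 against 51 and 80 (2.15, and 2.77 without that library), and Ighv8-11 had 66 and 66 against 3 and 2 (4.64).

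The segment Ighv1-14 again rose most, from 0 reads in both wild-type T cell libraries to 2083 and 709 in knockout, at least 741-fold higher. Ighv8-13 (25 and 40 knockout reads, at least 17.6-fold) and Ighv1-23 (43 and 17, at least 16.0-fold) were also without wild-type reads. Without the deeper knockout library the log2 bound of Ighv1-14 went from 9.53 to 8.62 and that of Ighv1-23 was 3.24. Ighv1-54 depended on the wild-type library used, with 410 and 271 against 10 and 57 reads, a log2 fold change of 3.08 that ran from 2.26 without the deeper wild-type library to 5.17 without the other. Wild-type libraries were uneven as a whole: of 33 segments with at least 20 wild-type reads, 28 were higher in the other library and 12 of them at least 2-fold. Ighv1-7 and Ighv1-9, with 34 and 120 and with 42 and 110 wild-type reads, were among these. The folds of the higher segments therefore changed with the wild-type library, from a log2 value of 1.33 to 3.54 for Ighv1-7, whose mean gave 2.04. Without the other wild-type library the values of Ighv5-4, Ighv8-12, Ighv1-66 and Ighv1-9 went from 1.65, 2.17, 2.24 and 3.23 to 2.55, 2.81, 3.55 and 4.39. Ighv5-6 depended on the deeper knockout library, with 743 and 346 reads against 35 and 40 (3.71, and 3.11 without it).

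Lower segments in T cells were mostly at 0 in knockout, as 10 of the 15 were in both libraries. Ighv1-39 had 160 reads in each wild-type library (at least 113-fold lower), Ighv1-80 had 81 and 133 (at least 78.0-fold), Ighv1-19 had 77 and 118 (at least 70.7-fold) and Ighv1-22 had 91 and 90 (at least 63.8-fold). Ighv5-16 (89 and 69 reads), Ighv1-81 (41 and 77), Ighv3-1 (54 and 23), Ighv7-4 (32 and 22), Ighv14-4 (21 and 18) and Ighv1-34 (12 and 22) were lower by at least 54.8-, 43.3-, 25.7-, 18.6-, 13.6- and 12.5-fold. Without the other wild-type library the log2 bounds of Ighv1-80, Ighv1-19, Ighv1-81 and Ighv1-34 went from -6.28, -6.14, -5.44 and -3.64 to -5.62, -5.55, -4.64 and -2.87. Of these 10, Ighv7-4 was not called in B cells, so its level there was not known. The others were also at or near 0 reads in knockout B cells. Ighv14-2 had 3 and 0 knockout reads against 155 and 123, 102-fold lower (exact 95% counting interval from 33.6 to 483). Ighv1-42 and Ighv1-85 had 1 knockout read each, with counting intervals of 7.25 to 1731 and 17.4 to 3970 on the ratio. Only Ighv10-3 (47 and 27 against 170 and 130, log2 fold change -2.13) and Ighv1-82 (59 and 39 against 149 and 156, -1.77) kept at least 27 reads in each library.

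Other B lineage transcripts were called in the same T cell preparations. Of the 15 genes on a plasma cell list 9 were called and all were higher in knockout, summing to means of 45150 against 12504, and none of them was at 0 in either genotype. Sdc1, the surface marker syndecan, had 753 and 738 normalised reads against 130 and 260, and Mzb1, a chaperone of antibody-secreting cells, 1926 and 1356 against 226 and 477. In both, the deeper wild-type library was the lower one, as for most Ighv segments. None of 12 B cell identity genes was called, so the table gave no level for them. Of 11 T cell identity genes 2 were called, both lower in knockout, with log2 fold changes of -0.71 for Cd8b1, a chain of the CD8 co-receptor, and -0.59 for Trbc1, a T cell receptor constant gene. Constant region genes Ighm, Ighg2b, Ighg2c and Ighg3 were all higher, as were all 49 called kappa and lambda variable segments, which summed to means of 55333 against 9743. The part of the number of B lineage or T cells in the Ighv values was not tested.

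In lymph node 19 Ighv segments were lower and 3 higher in knockout, 10.3% and 1.62% of the annotated Ighv genes. Called genes there numbered 105 in the authors' deposited table, 0.475% of about 22105 tested, with 0.181% higher and 0.294% lower. Ighv segments made up 29.2% of the genes called lower. The 19 lower segments summed to 126 and 81.6 normalised reads in knockout against 2409 and 2645 in wild type. Their median log2 fold change was -5.55 with groups at 0 at their bound and -4.69 over the 9 with reads in both groups, beside -2.27 over all genes called lower.

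Reads of 10 segments were absent from both knockout lymph node libraries. In wild type Ighv1-64 had 172 and 252 reads, which puts knockout at least 132-fold lower, Ighv1-80 had 165 and 137 (at least 93.1-fold) and Ighv1-22 had 116 and 104 (at least 67.9-fold). Ighv1-52 (91 and 90), Ighv1-39 (83 and 87), Ighv1-76 (95 and 67) and Ighv1-19 (77 and 75) were lower by at least 56.0-, 52.6-, 49.9- and 47.0-fold. Ighv5-16 (50 and 60), Ighv1-78 (49 and 58) and Ighv3-1 (38 and 57) had the fewest wild-type reads of the 10. The wild-type libraries were close to each other in most of these. Ighv1-50 had a single knockout read against 146 and 196, 415-fold lower with an exact 95% counting interval from 65.1 to 14466.

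Segments that kept reads in knockout lymph node were Ighv1-26, with 72 and 39 against 469 and 409 (log2 fold change -3.11, adjusted p = 1.17e-09 in the authors' deposited table), and Ighv1-82, with 9 and 8 against 176 and 237 (-4.69). Ighv10-3 had 26 and 14 against 118 and 186 (-3.06). Ighv5-17 had 26 and 7 against 210 and 119 (-3.49, and -4.44 without the deeper knockout library). Ighv1-81 and Ighv14-4 each had 3 and 0 knockout reads, against 116 and 100 and against 89 and 84, which made them 86.9- and 69.7-fold lower with exact 95% counting intervals from 26.0 to 376 and from 20.7 to 302. Ighv14-2 had 0 and 6 against 106 and 104 (-5.02, and -4.02 without the deeper knockout library), and Ighv1-59 had 9 and 0 against 55 and 97 (-4.36, and -3.36 without the other knockout library).

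The 3 higher segments in knockout lymph node were Ighv1-14, Ighv2-9 and Ighv1-4. Ighv1-14 had 380 and 351 knockout reads against 0 and 4 (log2 fold change 7.40, adjusted p = 3.4e-22 in the authors' deposited table, and 6.40 without the deeper wild-type library). Ighv2-9 had 357 and 275 against 3 and 47, so its log2 fold change of 3.53 was 2.62 without the deeper wild-type library and 6.66 without the other. Ighv1-4 had 267 and 148 against 6 and 44, with 2.90, 2.07 and 5.03 in the same order. In both segments the wild-type libraries thus differed more from each other than the knockout libraries did. Beside these, the kappa constant gene Igkc had 97560 and 94539 normalised reads in knockout against 44083 and 39626, and the B cell identity genes Cd79a, Fcer2a, Pax5 and Cd74 were lower, summing to 116988 and 108461 against 172028 and 165297. Log2 fold changes of these 4 of the 12 B cell identity genes were -0.59, -0.88, -0.75 and -0.56. All 8 called kappa and lambda variable segments were higher in knockout, summing to means of 8057 against 2202. Ighg2b and Ighg2c were higher too (20569 against 6565), as was Igj (19866 against 7384), the only plasma cell gene called. The part of these transcripts in the Ighv values was not tested.

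The comparisons of B cells, T cells and lymph node shared no samples, and their lists were set against each other. The labels do not tell whether the samples came from the same mice, so shared calls may not be independent repeats. The overlap over all called genes was not counted, so these shares cannot be called particular to Ighv. All 19 segments lower in lymph node were also lower in B cells, which is 100% of the lymph node list and 57.6% of the 33 of the B cell list. B cells and T cells shared 14 lower segments, 42.4% of the B cell and 93.3% of the T cell list, and T cells and lymph node shared 11, or 73.3% and 57.9%. The exception in T cells was Ighv7-4, called in no other table. Of 24 segments called in at least 2 of these comparisons, 22 were lower and 2, Ighv1-14 and Ighv2-9, were higher, and none changed direction. In all 3, the lower segments were Ighv1-19, Ighv1-22, Ighv1-39, Ighv1-80, Ighv1-81, Ighv1-82, Ighv3-1, Ighv5-16, Ighv10-3, Ighv14-2 and Ighv14-4. Of these 11, Ighv1-19, Ighv1-22, Ighv1-39, Ighv1-80, Ighv3-1 and Ighv5-16 had no read in any of the 6 knockout libraries. Among higher segments, B and T cells shared Ighv1-14, which is 100% of the 1 in B cells and 4.35% of the 23 in T cells, and T cells and lymph node shared Ighv1-14 and Ighv2-9, or 8.70% and 66.7%.

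Lymphoma tissue of knockout mice was compared with lymph node of both genotypes, 2 comparisons that share the lymphoma libraries and each share lymph node libraries with the comparison above. Against knockout lymph node 8 Ighv segments were called and all were higher in lymphoma, 4.32% of the annotated Ighv genes. Called genes there numbered 418 in the authors' deposited table, 1.77% of about 23565 tested, with 0.700% higher and 1.07% lower. The 8 segments had log2 fold changes between 1.58 and 3.51. They summed to 3915 and 3791 normalised reads in lymphoma against 996 and 932.

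Ighv5-9 rose most, with 201 and 318 reads in lymphoma against 17 and 25 in knockout lymph node (log2 fold change 3.51). Ighv5-4 had 432 and 474 against 84 and 44 (2.80, adjusted p = 9.97e-09 in the authors' deposited table), and Ighv1-54 had 619 and 449 against 133 and 52 (2.53). Ighv3-6, the most abundant of the 8, had 1326 and 1191 against 486 and 294 (1.65). Ighv2-6 (324 and 338 against 114 and 54), Ighv1-15 (321 and 356 against 82 and 87), Ighv10-1 (531 and 403 against 103 and 132) and Ighv2-3 (359 and 312 against 98 and 112) had log2 fold changes of 1.96, 1.91, 1.88 and 1.58. None of the 8 fell outside a 1.5-fold change of its value when a library was left out. No Ighv segment was called lower in lymphoma than in knockout lymph node by the authors' DESeq test, and tables of called genes cannot give the count at an unadjusted p below 0.05.

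Against wild-type lymph node 20 Ighv segments were higher and 21 lower in lymphoma, 10.8% and 11.4% of the annotated Ighv genes. There the authors' deposited table called 1630 of about 22086 genes tested, or 7.38%, with 3.34% higher and 4.04% lower. The higher segments summed to 9188 and 12131 normalised reads against 1110 and 1284, and the lower ones to 377 and 259 against 2521 and 2778. Ighv1-14 had 867 and 3419 reads in lymphoma against 0 and 4 (log2 fold change 9.87, and 8.53 without the other lymphoma library), and held 18.5% of the summed mean of the 41 segments in lymphoma. Ighv2-9 had 1332 and 2859 against 3 and 47 (6.20, from 5.28 without the deeper to 9.33 without the other wild-type library), and Ighv1-4 had 589 and 903 against 6 and 44 (4.71, from 3.88 to 6.83). Both wild-type libraries were far below both lymphoma libraries in each.

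Ighv2-3 had 359 and 312 lymphoma reads against 21 and 7 in wild-type lymph node (log2 fold change 4.43, and 5.38 without the deeper wild-type library), and Ighv1-54 had 619 and 449 against 14 and 30 (4.42, and 5.12 without the other wild-type library). Ighv3-6 had 1326 and 1191 against 221 and 205 (2.39, adjusted p = 1.62e-30 in the authors' deposited table), close to each other within each group. Ighv2-6 had 324 and 338 against 4 and 53 (3.34, from 2.44 without the deeper to 6.24 without the other wild-type library), and Ighv5-4 had 432 and 474 against 95 and 105 (2.01). Ighv8-13 (19 and 45 reads) and Ighv1-23 (13 and 28) had no read in wild-type lymph node and were at least 18.6- and 11.9-fold higher, with log2 bounds of 4.22 and 3.58 that were 3.43 and 2.89 without the other lymphoma library. Ighv1-37 had 190 and 83 reads against 19 and 0 (3.70, and 2.70 without the other wild-type library), Ighv4-1 had 1144 and 522 against 94 and 77 (3.11, and 2.47 without the deeper lymphoma library) and Ighv5-2 had 45 and 43 against 9 and 2 (2.85, and 4.25 without the deeper wild-type library). Without the other wild-type library Ighv1-66 and Ighv1-84 went from 2.38 and 2.46 to 3.53 and 3.25. The wild-type lymph node had reads of every other segment that was higher in lymphoma.

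**Figure D2:**
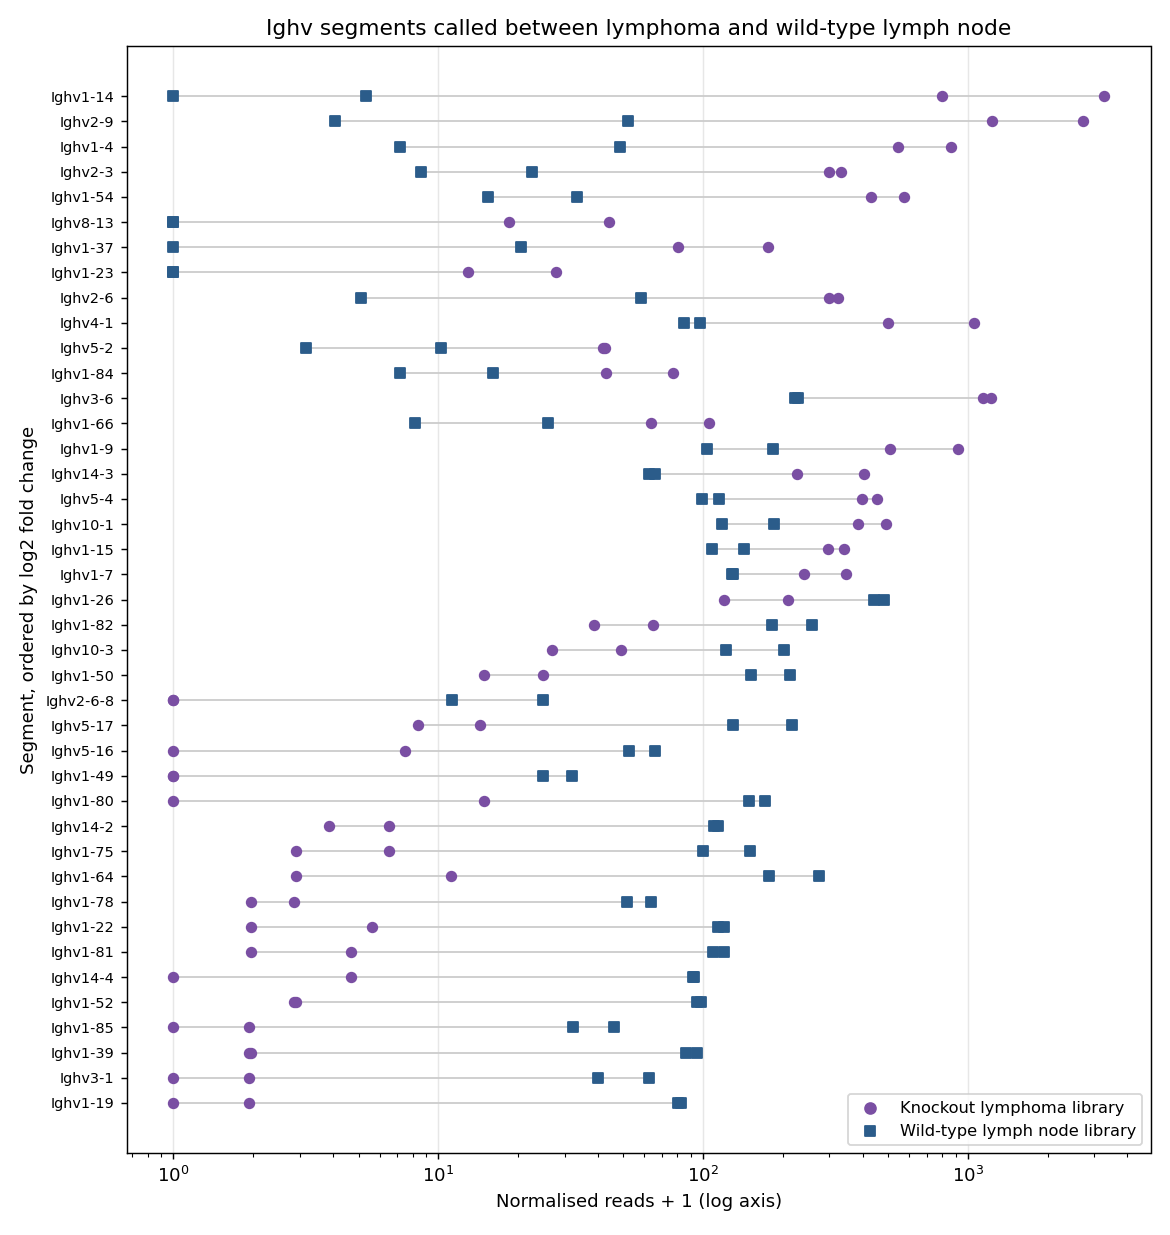
Normalised reads plus 1 (log axis) of the 41 Ighv segments called between knockout lymphoma and wild-type lymph node, one point per library (circles lymphoma, squares wild-type lymph node), ordered by log2 fold change. For the 20 upper segments both lymphoma points lie right of both wild-type points, and for the 21 lower segments they lie left of them. Only called segments are drawn, which favours such separation, and its share over all called genes was not counted.

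Most segments that were lower in lymphoma than in wild-type lymph node still had a few lymphoma reads. Ighv1-80 had 15 and 0 reads against 165 and 137 (log2 fold change -4.52, and -3.52 without the other lymphoma library), Ighv1-22 had 5 and 1 against 116 and 104 (-5.38, and -6.92 without the deeper lymphoma library) and Ighv1-64 had 11 and 2 against 172 and 252 (-5.22, and -6.88 without it). Ighv1-81 had 4 and 1 against 116 and 100 (-5.61, and -6.90 without it) and Ighv1-52 had 2 and 2 against 91 and 90 (-5.67). These segments were at or near 0 in both knockout lymph node libraries. Ighv1-19, with 1 and 0 reads against 77 and 75, was 174-fold lower (exact 95% counting interval from 30.2 to 6790), and Ighv1-39, with 1 and 1 against 83 and 87, was 95.6-fold lower (from 26.0 to 795). Ighv1-49 (30 and 22 wild-type reads) and Ighv2-6-8 (10 and 22) had no read in lymphoma, and the log2 bound of Ighv2-6-8 was -3.57, or -2.84 without the other wild-type library. Ighv3-1 (38 and 57 wild-type reads) and Ighv1-85 (44 and 29) had 1 lymphoma read each, 109-fold lower (from 18.7 to 4260) and 83.0-fold lower (from 14.3 to 3284). Ighv1-75 (6 and 2 against 96 and 138, -5.06) and Ighv5-16 (7 and 0 against 50 and 60, -4.17) gave -6.02 without the deeper and -3.17 without the other lymphoma library. Ighv1-26 kept the most, with 226 and 125 reads against 469 and 409 (-1.50).

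Lymphoma libraries also held transcripts of another tissue. Of 12 salivary gland genes 7 were called higher in lymphoma in both comparisons, and against wild-type lymph node they summed to 234186 and 576273 normalised reads in lymphoma and 11233 and 30131 in lymph node, with none at 0 in both libraries of a group. In knockout lymph node they summed to 7594 and 425. Plasma cell genes were higher in lymphoma, 8 of 15 against knockout and 11 of 15 against wild-type lymph node, where they summed to 64858 and 63774 against 22520 and 20460. The 3 called heavy constant genes, Ighg2b, Ighg2c and Ighg3, were higher in both comparisons. Of the 12 B cell identity genes, the complement receptor gene Cr2 was lower in lymphoma than in knockout lymph node (-1.16 on the log2 scale). Against wild-type lymph node 5 entries of that list were called, 4 lower and 1 higher (Blk, 0.41), with Cr2 listed as 2 entries. These 5 summed to 104255 and 69903 normalised reads in lymphoma against 165166 and 158998. Of 11 T cell identity genes 6 were called there, 2 higher and 4 lower. The part of these transcripts in the Ighv values was not tested. The other lymphoma library had the higher salivary sum. Segments higher in lymphoma than in wild-type lymph node summed to 9188 normalised reads in the deeper and 12131 in the other lymphoma library. The lower segments summed to 377 and 259. Of 25 segments of both directions with at least 20 lymphoma reads, 12 were higher in the deeper lymphoma library and 13 in the other. Whether Ighv levels went with the salivary transcripts was not tested.

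Position along the locus did not part the segments fully. Over all comparisons 29 segments were higher and 35 lower wherever they were called. The 7 placed segments nearest the D segments, from Ighv5-2 at 0.00558 Mb to Ighv2-6 at 0.144 Mb from the first Ighv gene, were all higher. None of these 7 was called in B cells or in knockout against wild-type lymph node, so their calls came from T cells and lymphoma alone. In the stretch of 18 segments from Ighv1-19 at 1.14 Mb to Ighv1-64 at 1.94 Mb, 16 were lower, and Ighv1-37 and Ighv1-54 were higher. All of these 16 were called lower in B cells, where Ighv1-37 and Ighv1-54 were not called. Outside these stretches lay a run of 7 lower segments, from Ighv1-75 to Ighv1-82, and one of 5 higher segments, from Ighv3-6 to Ighv1-4. Runs of 4 higher segments went from Ighv1-7 to Ighv1-18 and from Ighv8-11 to Ighv8-12. A run of 4 lower segments, from Ighv2-9-1 at 0.197 Mb to Ighv5-17 at 0.286 Mb, came directly after the first stretch. Over the whole locus 19 of 61 neighbouring pairs of placed segments had opposite directions. The median distance from the first Ighv gene was 0.906 Mb for the 27 placed higher segments and 1.42 Mb for the 35 lower ones, with ranges that overlapped almost fully (0.00558 to 2.41 Mb and 0.197 to 2.43 Mb). Directions were pooled over unlike comparisons here. In these counts and medians, position and the comparison that called a segment therefore cannot be told apart. Both stretches were chosen after the values were seen, and distances are descriptions with no test.

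**Figure D3:**
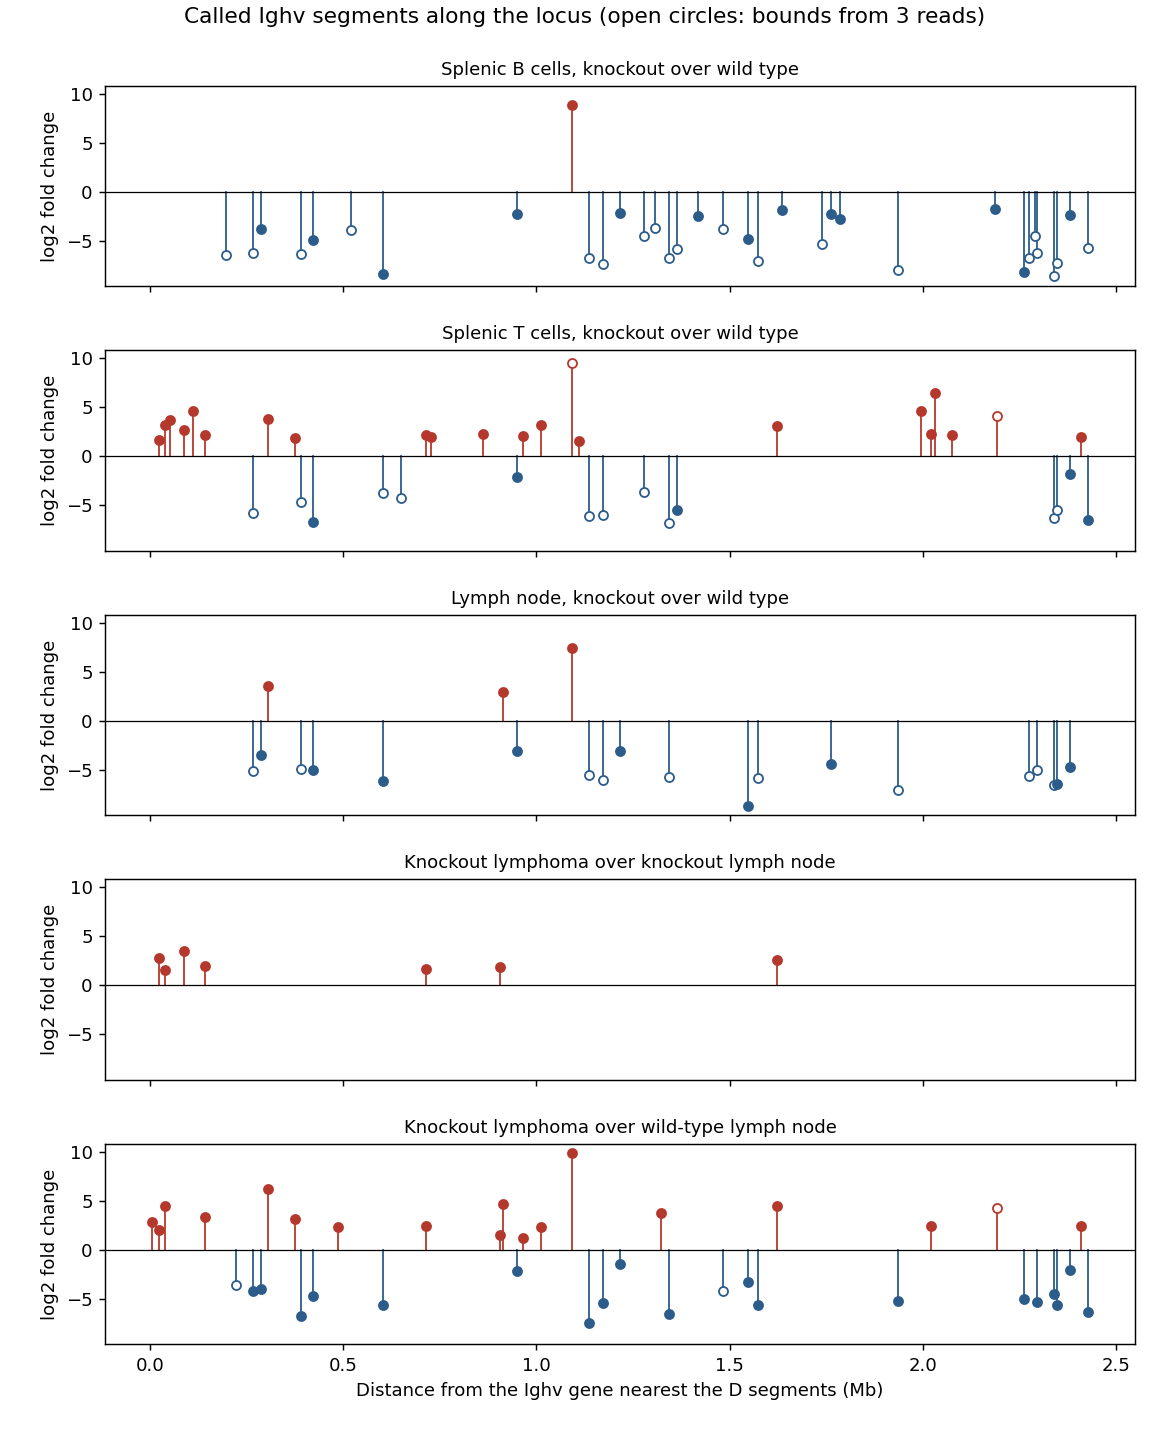
Log2 fold change of each called and placed Ighv segment (vertical axis) against its distance in Mb from the Ighv gene nearest the D segments (horizontal axis), in 1 panel per comparison; open circles are bounds from 3 reads where a group had none. In B cells and lymph node nearly all points lie below 0 along the whole locus, apart from Ighv1-14 in B cells and Ighv2-9, Ighv1-4 and Ighv1-14 in lymph node, and in T cells and lymphoma against wild-type lymph node points above and below 0 lie side by side.

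Family did not fix the direction either. In Ighv1 12 segments were higher and 25 lower, in Ighv2 and in Ighv5 4 were higher and 2 lower, in Ighv14 1 was higher and 2 lower, and Ighv3, Ighv9 and Ighv10 each had 1 of each. The 3 segments of Ighv8, namely Ighv8-11, Ighv8-12 and Ighv8-13, were all higher, as were Ighv4-1 and Ighv6-6, whereas Ighv7-4 was lower. Counts by family were pooled over the comparisons too. Of the 62 placed segments, the closest relative in sequence was called in the other direction for 15, in the same direction for 26, and was not listed for 21. There were 7 pairs at least 95% identical with opposite calls in the same comparison. For the pairs whose sequences are printed above, Ighv1-18 had 107 and 124 reads in knockout T cells against 35 and 35 in wild type, where Ighv1-22 had 0 and 0 against 91 and 90. In lymphoma Ighv10-1 had 531 and 403 reads against 114 and 170 in wild-type lymph node, and Ighv10-3 had 52 and 27 against 118 and 186. Whether reads moved between such relatives in counting was not tested.

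**Figure D4:**
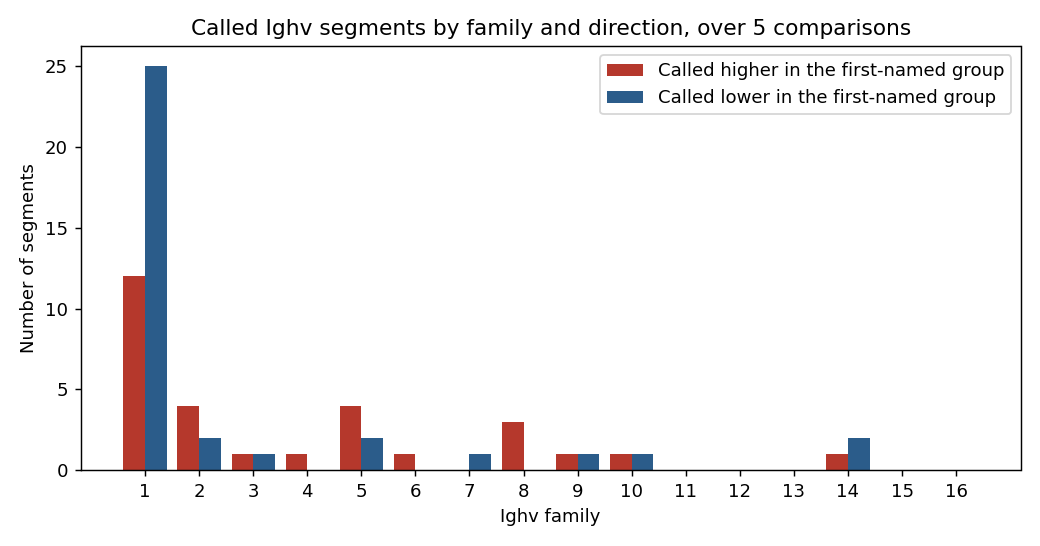
Number of Ighv segments called higher (red) or lower (blue) in the first-named group (knockout, or lymphoma), by family, over the 5 comparisons; no segment had calls in both directions. Ighv1 had 12 higher and 25 lower segments, and Ighv8 had 3 higher and none lower.

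Other genes of the heavy chain locus were also listed. Joining segments were lower wherever called: Ighj3 in B cells, with means of 61 against 213, and Ighj1 in lymph node, with 12 against 117, and in lymphoma against wild-type lymph node, with 21 against 121. In B cells the constant genes Ighg3 and Ighe were higher, so V segments and constant genes of the same locus were called in opposite directions. The 16 called kappa and lambda variable segments were all higher in B cells, summing to 53826 and 34275 normalised reads in knockout against 4860 and 4878. Fcer2a was the only B cell identity gene called in B cells, and Irf4 the only plasma cell gene. Both were lower in knockout, with log2 fold changes of -0.93 and -0.77. Dntt, which adds bases at the joints between segments, was lower in knockout T cells (66.1 and 74.1 normalised reads against 207 and 170). Rag1 and Rag2, which cut the segments for joining, were listed in no table. Becn2 itself was listed in 0 of the 5 tables, so its level did not check the genotype labels.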

How the data were processed

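RNA of 14 samples (7 groups of 2) was sequenced on an Illumina HiSeq from oligo(dT)-selected mRNA, per the labels' protocols. CASAVA 1.8, DESeq (no version) and the builds GRCm38 and mm10 are named in the submitters' processing notes. The aligner, the counting rule, the strand setting and the annotation release are not given in the sources used here. The bone marrow macrophage samples of the series were not analysed here.

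The deposited tables hold, for called genes only, the authors' signal values (mean normalised read counts, 1 per group), their log2 fold changes, and their p-values with Benjamini-Hochberg adjusted p. The number of genes tested per table was derived from how raw and adjusted p relate. No test was computed here. Every p printed is the authors', and every fold change is the ratio of their means.

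Whole reads per library were recovered from the digits of the means, since a mean of 2 libraries is a sum of whole reads over 2 size factors. The search settings were revised after earlier ones left many means unsolved. Of 430 genes listed in 2 tables that share a group, 430 had the same reads in both, but the B and T cell tables share no group with another table, so their split between libraries has no such check. The procedure was tested on simulated data, where all reads it solved were right, although few were solved in the simulated wild-type lymph node. Recovered libraries carry no replicate number. Depth is known only as size factors between 0.842 and 1.19. Floors of 3 reads and exact 95% intervals cover counting error only.

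Members and gene lists were chosen with earlier results of these data known. Named are segments called in at least 2 of the comparisons of B cells, T cells and lymph node, those with 0 reads in a group, and per comparison and direction the 5 of largest fold and the 5 of smallest adjusted p among those with a mean of at least 50. Other segments named were chosen after their values were seen, as were the locus stretches, the limits of 20 reads and 2-fold for uneven libraries, and the printed sequence pairs. Positions and sequences come from GENCODE M21, matched by gene identifier. Identity was the edit distance over 294 bases, the shortest last coding exon among the placed segments (edlib 1.3.9.post1), with Python 3.11.15, numpy 2.4.6, scipy 1.17.1 and matplotlib 3.10.9. Alternatives tried were an adjusted p under 0.01, a fold of at least 2, a mean of at least 50, 1 added to both means, no pseudogenes, and leaving out each library.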

Additional observations from a re-analysis of the deposited data

How the results depend on the processing

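No segment changed direction in 715 alternative values of single segments. This was fixed in advance, because the libraries of the compared groups did not overlap in any called segment. Leaving out 1 library or adding 1 to both means therefore could not reverse a direction. The 2-fold limit and the removal of pseudogenes left out no segment, so they could not change a count. Under an adjusted p under 0.01 or a mean of at least 50, the total of called segments in each comparison stayed within 1.5 times. By direction, 2 counts moved further: an adjusted p under 0.01 left 11 of the 20 segments higher in lymphoma than in wild-type lymph node, and a mean of at least 50 left 9 of the 15 lower in knockout T cells. The median log2 fold change in B cells (-5.12) was -5.68 with 1 added to both means, -5.82 with a mean of at least 50, and between -5.19 and -4.51 with 1 library left out. In lymph node (-5.07) it was -5.63 with 1 added and between -5.23 and -4.56 with 1 library left out, and in lymphoma against knockout lymph node (1.94) it was between 1.97 and 2.14. Groups at 0 take a looser bound by construction when a library is left out. With a mean of at least 50, 9 lower segments were shared by B and T cells (14 without the limit), and the summed level in wild-type B cells was 6877 (7021 without it), in both cases because fewer segments were counted. Both of these were chosen after seeing the data. Among segments with reads in both groups, leaving out 1 library moved the fold by over 1.5 times for 12 of 14 in B cells, 12 of 25 in T cells, 9 of 12 in lymph node, 0 of 8 in lymphoma against knockout and 21 of 37 against wild-type lymph node. No paired analysis was possible because the deposited columns are group means and the recovered libraries carry no replicate number. Segments not called have no values in the tables, so smaller differences could not be examined.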
